A study of Mus musculus with 16 samples.

Results

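Pmp22, Mbp, Mag, Prx, Mal, Cnp, Egr2 and Sox10 are 8 genes of the Schwann cell and its myelin, and they were followed here in the skeletal muscle of 16 mice. They are set by gene name, in a list drawn up with earlier results of these data known. All 8 names were found among the 23235 gene names of the mRNA table, as 42 transcripts, and all 8 passed the filter on low counts that left 15364 genes to test. The study fed male C57BL/6J mice, 6 weeks old at the start, a normal diet (control group) or a diet with 60% fat (HFD group), and asked what resveratrol (RSV), a plant polyphenol, does to insulin-resistant muscle. After 8 weeks on the HFD, mice received RSV (HFD + RSV group) or the antidiabetic drug metformin (HFD + metformin group) for 6 weeks before muscle was collected. RNA of 4 mice per group was sequenced, 1 library per mouse, so that both treated groups carry the HFD as well and have no counterpart on the normal diet. The muscle taken is not named, and some mice of each group received insulin shortly before sampling, without it being given which of the sequenced ones did.

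Skeletal muscle is crossed by motor and sensory nerve branches, and the myelin around their axons is made by Schwann cells, glia of the neural crest. Sox10 is the transcription factor that holds Schwann cell identity, and together with Egr2 (also called Krox20) it turns on the genes of myelin proteins and lipids. Compact myelin, the layered membrane, holds Pmp22 and Mbp, while Mag and Cnp belong to the looser, cytoplasm-containing parts of the sheath and Prx to the outer face of the Schwann cell. Pmp22 dosage, and mutations of Prx, Egr2 and Sox10, are known causes of inherited neuropathies.

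Counts of the mRNA table ranged from 17625909 to 29761026 per mouse, and levels are given as CPM, counts brought to a common library total with TMM scaling, which corrects for library composition. Markers of muscle fibres summed to 55875 to 106364 CPM, whereas the retina markers, a tissue named in the extraction notes, summed to at most 0.621 CPM in any mouse. The 12 Schwann cell markers, which include Sox10, Prx and Mag, were detected in every mouse except Pmp2, which had 0 counts in 4 mice. They summed to 58.3 to 172 CPM in control mice, 42.3 to 55.0 in HFD mice, 35.6 to 316 in HFD + RSV mice and 39.3 to 72.9 in HFD + metformin mice. Of the genes listed for oligodendrocytes, the myelinating cells of the brain and spinal cord, 4 of 7 were in the table and summed to 7.62 to 28.4 CPM. Nearly all of this was Aspa, the enzyme that splits N-acetylaspartate, at 6.61 to 28.01 CPM, with Sox8 at 0.380 to 1.82 CPM, Nkx6-2 at up to 0.179 CPM, and Mog, which defines these cells, at no more than 2 counts in a mouse. The 4 melanocyte genes, the other Sox10-positive lineage looked at, reached at most 0.515 CPM together. In RNA from whole muscle, fewer Schwann cells and less RNA per Schwann cell cannot be told apart. The titles of all 4 HFD mice carry a leading number that no other group has. What that number stands for cannot be told apart from being in the HFD group. This holds in HFD + RSV against HFD and HFD + metformin against HFD as well as in HFD against control.

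Per length of transcript, Pmp22 was the most abundant of the 8 genes, with a summed FPKM (fragments scaled to transcript length and library size) of 15.99 ± 13.0 (SD, n = 16). Mbp stood at 4.35 ± 3.25, Cnp at 4.18 ± 1.50, Prx at 3.50 ± 3.55, Mal at 1.17 ± 1.22, Sox10 at 0.758 ± 0.523, Mag at 0.448 ± 0.322 and Egr2 at 0.420 ± 0.264 FPKM (SD, n = 16). Neighbours in this order lay within both SDs, except that Pmp22 stood above Mbp, and Prx above Mal, by less than its own SD but by more than that of the lower gene.

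Among the proteins of compact myelin, Mbp, the basic protein that seals the cytoplasmic faces of the membrane, gave 11.2, 22.0, 27.0 and 12.7 CPM in control mice 1 to 4, 7.83, 7.11, 6.45 and 7.12 CPM in HFD mice 1 to 4, 9.52, 32.9, 8.56 and 16.9 CPM in HFD + RSV mice 1 to 4, and 10.01, 9.06, 21.9 and 6.50 CPM in HFD + metformin mice 1 to 4. All 4 HFD mice lay below all control and all HFD + RSV mice. The HFD group was narrow, at 7.13 ± 0.563 CPM (SD, n = 4), while in the control, HFD + RSV and HFD + metformin groups the highest mouse stood at 2.40, 3.84 and 3.36 times the lowest.

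Pmp22, a membrane protein whose gene dosage sets the stability of peripheral myelin, gave 15.1, 63.5, 54.9 and 16.9 CPM in control mice 1 to 4, 27.0, 23.7, 11.4 and 18.0 CPM in HFD mice, 32.1, 107, 12.8 and 30.8 CPM in HFD + RSV mice, and 29.3, 16.4, 14.5 and 17.5 CPM in HFD + metformin mice. The control mice fell into a high pair, mice 2 and 3, and a low pair that lay within the range of the HFD group. A single mouse, HFD + RSV 2, stood at 9.39 times the level of the lowest of the 16.

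Mal, a lipid-raft protein that sorts myelin components to the membrane, gave 2.19, 7.53, 6.37 and 1.77 CPM in control mice 1 to 4, 1.69, 1.95, 1.50 and 1.29 CPM in HFD mice, 2.86, 15.7, 1.15 and 6.30 CPM in HFD + RSV mice, and 2.14, 2.62, 2.96 and 1.01 CPM in HFD + metformin mice. Control mice 2 and 3 were again the high ones of their group, and HFD + RSV 2 and HFD + RSV 3 were the highest and lowest of theirs.

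In the non-compact sheath, Mag, an adhesion protein facing the axon, was low: 0.730, 1.61, 1.52 and 0.884 CPM in control mice 1 to 4, 0.346, 0.457, 0.486 and 0.505 CPM in HFD mice, 0.894, 2.77, 0.0887 and 1.52 CPM in HFD + RSV mice, and 0.770, 1.05, 0.718 and 0.467 CPM in HFD + metformin mice. These values rest on 2 to 64 counts per mouse, the 2 counts being those of HFD + RSV 3. All HFD mice lay below all control mice. Cnp, a phosphodiesterase of the cytoplasmic channels of myelin, varied least: 11.3, 13.96, 14.7 and 9.93 CPM in control mice, 10.7, 8.07, 8.88 and 8.50 CPM in HFD mice, 11.4, 21.3, 9.85 and 13.9 CPM in HFD + RSV mice, and 10.4, 10.3, 11.9 and 10.1 CPM in HFD + metformin mice.

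Prx, the periaxin scaffold that links the Schwann cell to its basal lamina, gave 11.5, 40.4, 32.4 and 10.2 CPM in control mice 1 to 4, 10.7, 10.9, 8.27 and 7.53 CPM in HFD mice, 15.6, 80.7, 5.94 and 30.1 CPM in HFD + RSV mice, and 8.80, 13.6, 12.0 and 7.26 CPM in HFD + metformin mice. The order of the mice was close to that of Mal, with HFD + RSV 2 at 13.6 times the level of HFD + RSV 3.

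Of the transcription factors, Sox10 gave 2.19, 3.64, 3.05 and 1.82 CPM in control mice 1 to 4, 1.64, 1.66, 1.11 and 1.56 CPM in HFD mice, 2.28, 7.63, 1.06 and 2.82 CPM in HFD + RSV mice, and 2.03, 2.10, 1.77 and 1.11 CPM in HFD + metformin mice. The lowest control mouse was above the highest HFD mouse. Egr2 gave 1.40, 2.16, 1.29 and 1.2999 CPM in control mice, 1.21, 0.873, 1.02 and 0.505 CPM in HFD mice, 3.31, 3.03, 1.20 and 1.61 CPM in HFD + RSV mice, and 0.880, 0.375, 0.929 and 0.683 CPM in HFD + metformin mice. For Egr2 the highest mouse was HFD + RSV 1, not HFD + RSV 2 as for the other 7 genes, and control 3, high for every structural gene, was the lowest of its group.

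**Figure D1:**
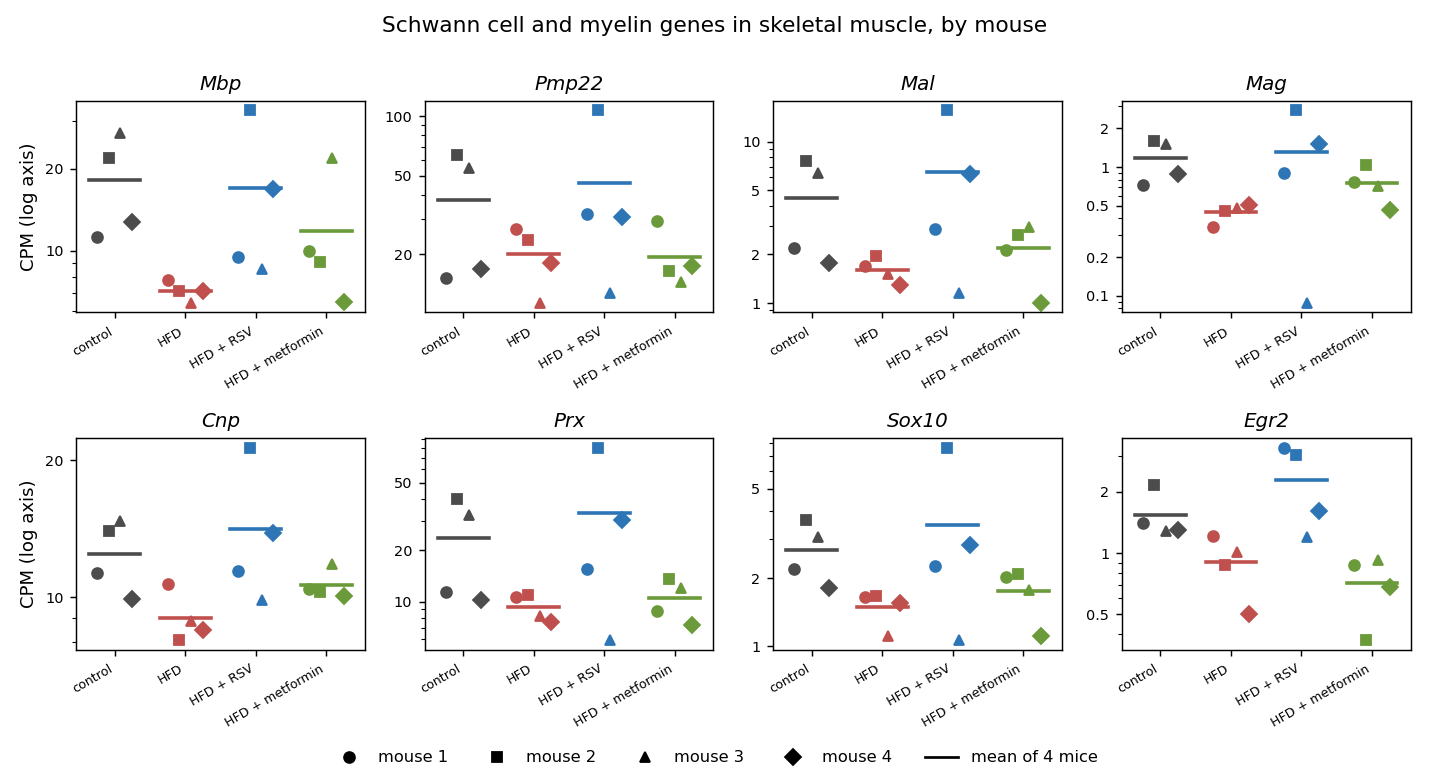
CPM of the 8 genes on log axes, 1 panel per gene, with the 4 mice of each group as symbols (the same symbol is the same mouse number in every panel) and the group mean as a line. Control mice 2 and 3 and HFD + RSV 2 sit at the top of their groups for Mbp, Pmp22, Mal, Mag, Cnp and Prx, while HFD + RSV 3 is the lowest of its group for all 8 genes.

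The HFD group is compared with the control group to ask what the diet did. All 8 genes were lower in the HFD group, by log2 fold changes of -1.49 (Mal) to -0.47 (Cnp) with a median of -1.13, while the median over all tested genes was -0.018. None passed an adjusted P of 0.05 in the edgeR quasi-likelihood test, in which 2.43% of all genes were called. At an unadjusted P of 0.05, 5 of the 8 passed, against 24.2% of all genes, and by the criteria the study used (unadjusted P below 0.05 and absolute log2 fold change above 1) 4 passed, all lower: Mbp, Mag, Mal and Prx. These criteria called 4.94% of all genes, 4.03% in the lower direction. That count fell to 1 in edgeR without control 2, control 3 or any 1 of the HFD mice, and in a fit of 12 mice without the metformin group. The 5 at an unadjusted P fell to 1 without control 2, without control 3 and in the 12-mouse fit. DESeq2 called 1 of the 8, Mbp, and 10% of all genes. The study's own analysis lists both Pmp22 and Sox10 as lower with the HFD, and neither met its criteria in this fit.

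Mbp had the smallest P of the 8, with a log2 fold change of -1.36 ± 0.45 (SE) and an edgeR adjusted P of 0.0961. Without HFD + metformin 3, a mouse that enters this comparison only through the shared estimate of the spread, the edgeR adjusted P of Mbp was 0.0435, and DESeq2 gave 0.0271. Mag changed by -1.41 ± 0.61, Mal by -1.49 ± 0.66, Prx by -1.34 ± 0.63 and Cnp by -0.47 ± 0.20 on the log2 scale (SE), with edgeR adjusted P of 0.173 to 0.206. Pmp22, at -0.91 ± 0.59 (SE), had the largest P of the 8, with an edgeR adjusted P of 0.356, and its low control mice overlapped the HFD group. Egr2 and Sox10 were lower by -0.77 ± 0.37 and -0.85 ± 0.45 (SE), with edgeR adjusted P of 0.217 and 0.266.

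The HFD and control mice did not overlap for Mbp, Mag, Egr2 and Sox10, 4 of the 8 genes, each with an exact two-sided permutation P of 0.0286, the smallest that 4 mice against 4 can give. Groups did not overlap for 18.3% of all tested genes. Without control 2 the median log2 fold change of the 8 genes was -0.81 and without control 3 it was -0.98, both still below 0. Summed markers of the perineurium and endoneurium, the sheaths of the nerve itself, were 62.1 to 144 CPM in the control group, highest in control 2 and control 3, and 49.7 to 58.0 CPM in the HFD group. This sum includes Itgb4, at 7.19 to 42.3 CPM over all mice, which is also counted below with non-compact myelin and adhesion. Adipocyte markers summed to between 1043 and 4716 CPM in control mice and to between 208 and 1034 CPM in HFD mice. Endothelial markers, at 333 to 400 CPM in control and 268 to 329 CPM in HFD mice, and satellite cell markers, at 21.6 to 37.8 and 40.2 to 49.1 CPM, did not overlap between these groups either. The part of any of these in the result was not tested.

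**Figure D2:**
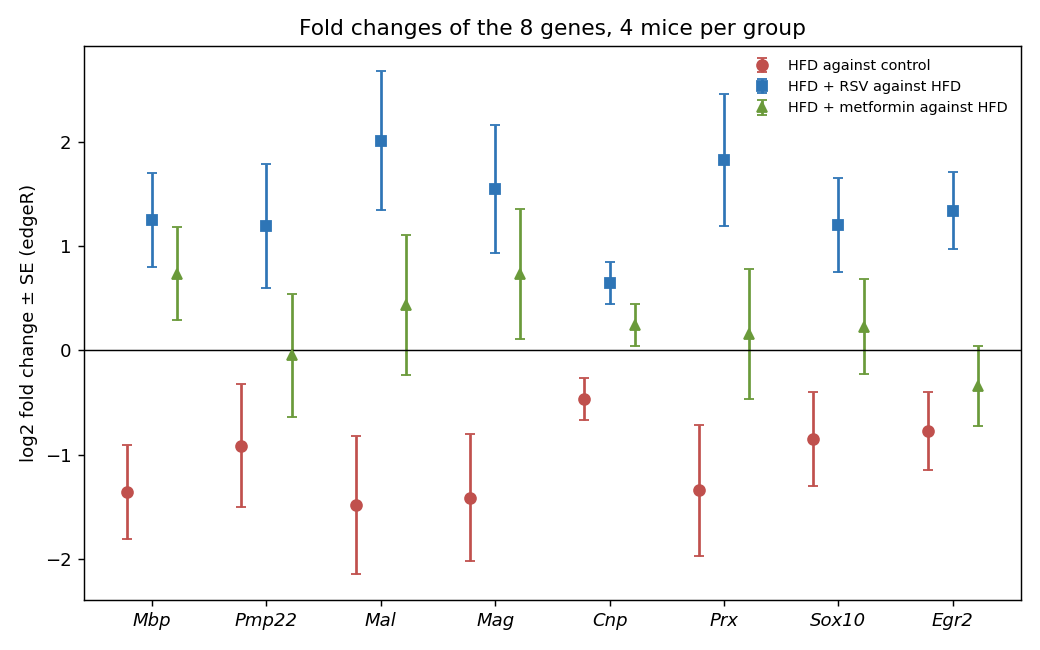
Log2 fold changes of the 8 genes with their standard errors (edgeR, 4 mice per group) in HFD against control, HFD + RSV against HFD and HFD + metformin against HFD, which share the HFD mice. All 8 points lie below 0 in the first and above 0 in the second, and the error bars of the metformin comparison reach 0 for Pmp22, Mal, Prx, Sox10 and Egr2.

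Whether RSV altered these genes is asked by HFD + RSV against HFD, a comparison that uses the same HFD mice as the one above. All 8 genes were higher in the HFD + RSV group, by log2 fold changes of 0.64 (Cnp) to 2.01 (Mal) with a median of 1.29, against 0.0049 over all genes. No gene of the 15364, members included, had an edgeR adjusted P below 0.05 (0% called), and DESeq2 called 8 genes (0.0521%), none of them among these. At an unadjusted P of 0.05 edgeR passed 7 of the 8 genes, all but Pmp22, and 4.72% of all genes. By the criteria of the study 6 of the 8 passed, all higher: Mbp, Mag, Mal, Prx, Egr2 and Sox10. The same criteria called 1.08% of all genes, 0.885% in the higher direction. The study's own analysis lists both Pmp22 and Sox10 as higher with RSV, and of these Pmp22 did not meet the criteria in this fit. Myelination was among the most enriched functions that the study reports for its differentially expressed mRNAs.

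Mal differed by 2.01 ± 0.67, Prx by 1.82 ± 0.63, Mag by 1.55 ± 0.61, Egr2 by 1.34 ± 0.37, Mbp by 1.25 ± 0.45, Sox10 by 1.20 ± 0.45, Pmp22 by 1.19 ± 0.59 and Cnp by 0.64 ± 0.20 on the log2 scale (SE). Every edgeR adjusted P was 0.999. Mbp was the only one whose HFD + RSV and HFD mice did not overlap (exact permutation P = 0.0286), a separation seen for 4.2% of all genes. For Mag, Prx, Mal and Sox10, HFD + RSV 3 fell below every HFD mouse while the remaining HFD + RSV mice lay above every HFD mouse.

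The size of this difference rested in large part on HFD + RSV 2. Without it, 1 of the 8 genes, Egr2, met the criteria of the study in edgeR, 2 passed an unadjusted P of 0.05 and the median log2 fold change was 0.80, with values from 0.34 (Pmp22) to 1.17 (Egr2), all still above 0. Without HFD + RSV 3, 7 met them and the median was 1.53. Blood markers were higher in all HFD + RSV mice, at 507 to 1343 CPM, than in all HFD mice, at 362 to 477 CPM. In all HFD + metformin mice, at 500 to 1393 CPM, these markers were above the HFD mice as well. HFD + RSV 2 had the highest blood markers of its group, against 507 to 632 CPM in the other 3 mice, and the highest perineurial and endoneurial markers, 105 CPM against 42.5 to 75.1 CPM. Its fibroblast and muscle fibre markers, 2009 and 90569 CPM, lay inside the range of the other HFD + RSV mice. What these have to do with the result was not tested.

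Metformin was the other treatment. Log2 fold changes of the HFD + metformin from the HFD group ran from -0.34 (Egr2) to 0.74 (Mag) with a median of 0.23, 6 genes higher and 2 lower, and none of the 8 passed an adjusted or an unadjusted P of 0.05 in edgeR or an adjusted P in DESeq2. Over all genes edgeR called 0.013% by adjusted P, 8.02% by unadjusted P and 1.76% by the criteria of the study, and DESeq2 0.202%. Mbp was higher by 0.73 ± 0.45 (SE; edgeR adjusted P = 0.666). HFD + metformin 3, which held its highest Mbp value, also had the highest adipocyte markers of its group, 4381 CPM against 211 to 1707 CPM.

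Against the control group, the HFD + RSV mice overlapped the control mice for all 8 genes, while groups did not overlap for 11.3% of all genes. Log2 fold changes lay between -0.11 (Mbp) and 0.56 (Egr2), and 0 of the 8 passed an adjusted or unadjusted P in edgeR or an adjusted P in DESeq2, with 0.00651% of all genes called by adjusted P, 15.8% by unadjusted P, 2.72% by the criteria of the study and 2.45% by DESeq2. Leaving out HFD + RSV 2 turned 6 of these differences below 0, as for Pmp22 at -0.58. With standard errors of 0.20 (Cnp) to 0.63 (Mal), these data do not show that the groups were alike.

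The HFD + metformin group was below the control group for all 8 genes, by -1.18 to -0.23 on the log2 scale, and 0 passed an adjusted P in edgeR or DESeq2. Egr2 was the gene that passed an unadjusted P and the criteria of the study, at -1.12 ± 0.38 (SE; edgeR unadjusted P = 0.00986, adjusted P = 0.349), and its groups did not overlap, as for 3.53% of all genes. Perineurial and endoneurial markers, at 45.5 to 58.2 CPM in HFD + metformin mice, lay below those of all control mice too, and their part in this was not tested. Of all genes, 0% were called by adjusted P in this comparison, 9.5% by unadjusted P, 1.63% by the criteria of the study and 0.95% by DESeq2. Without control 2, or without HFD + metformin 2, 0 of the 8 genes met those criteria, and 2 met them without control 1, control 4, HFD + metformin 3, HFD + RSV 2 or HFD + RSV 3.

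Setting both treatments side by side, all 8 genes were higher in the HFD + RSV than in the HFD + metformin group, with a median log2 fold change of 1.11. Egr2 stood out, at 2.29 ± 1.04 CPM against 0.717 ± 0.252 CPM (SD, n = 4 each). Its log2 fold change was 1.68 ± 0.38 (SE) with an edgeR unadjusted P of 0.000464 and an adjusted P of 0.648, and DESeq2 called it at an adjusted P of 0.0408, as it did 0.0651% of all genes. The lowest HFD + RSV mouse was above the highest HFD + metformin mouse (exact permutation P = 0.0286), which held for 1.56% of all genes. Which cells the Egr2 RNA came from was not tested. Within groups Egr2 did not pass the test of correlation with Sox10, given below. By edgeR 0 of the 8 passed the adjusted P (0% of all genes), 4 passed the unadjusted P (4.68% of all genes), and Egr2, Mal and Prx met the criteria of the study (0.97% of all genes, 0.495% in the higher direction). That count was 1 without HFD + RSV 2, 5 without HFD + RSV 4 and 6 without HFD + RSV 3, and 2 without HFD + metformin 4.

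The mice within a group differed more in these genes than in the median gene. After subtracting group means, the SD of log2 CPM was 1.00 for Mal, 0.968 for Prx, 0.939 for Mag, 0.903 for Pmp22, 0.654 for Mbp, 0.652 for Sox10 and 0.521 for Egr2, against a median of 0.254 over all genes tested. Cnp, at 0.293, was nearest to it and lay at the 57.8th percentile, whereas Mal, Prx and Mag lay above the 95th. Among genes within 0.5 of the same mean log2 CPM, Egr2 lay lowest, at the 67.9th percentile, then Cnp at 72.1, Sox10 at 85.4 and Mag at 91.1, with the other 4 between 94.6 and 98.7.

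**Figure D3:**
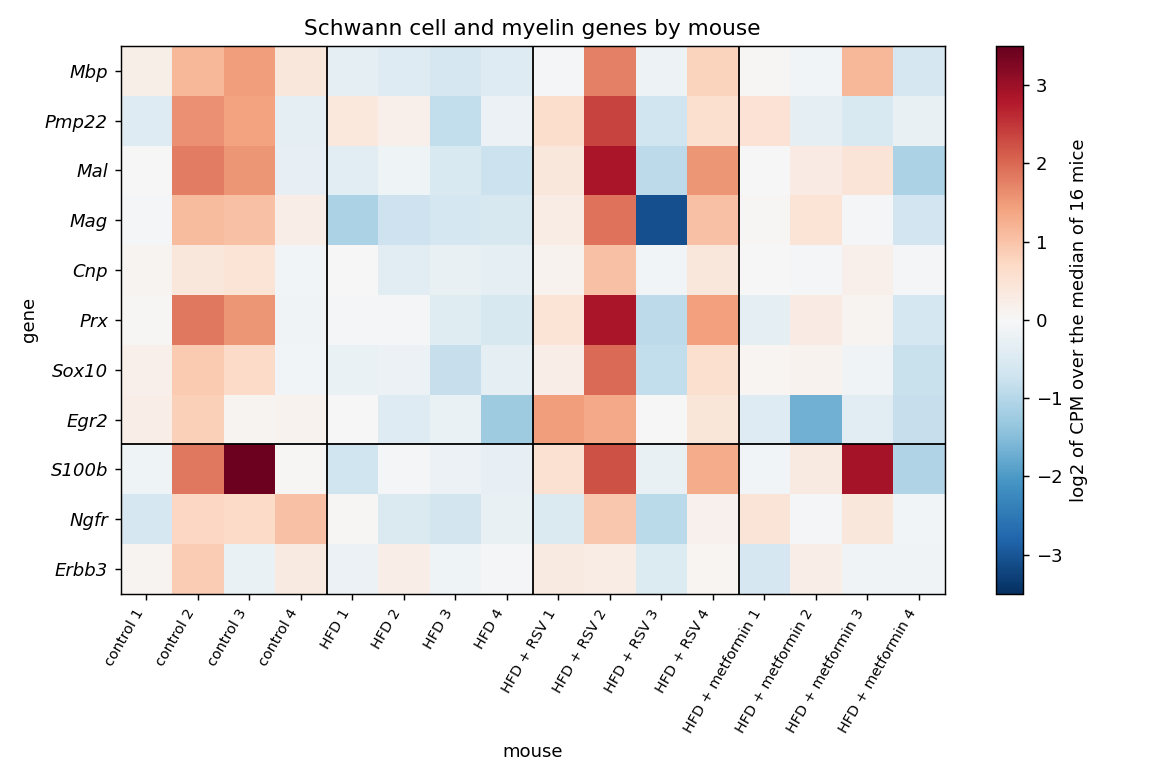
Log2 of CPM over the gene's median of 16 mice, mice in columns by group and genes in rows, the 8 genes above the line and S100b, Ngfr and Erbb3 below it. The columns of control 2, control 3, HFD + RSV 2 and HFD + RSV 4 are red for nearly every gene of myelin. Those of HFD 3, HFD 4, HFD + RSV 3 and HFD + metformin 4 lie below the median for all 8 genes. HFD 2 lies below it for all of them but Pmp22. Egr2 and Erbb3 follow the pattern of the columns least.

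Much of that spread was shared. Relative to Sox10 of the same mouse, the within-group SD of Mal dropped from 1.00 to 0.461 on the log2 scale, that of Prx from 0.968 to 0.432, of Mag from 0.939 to 0.471, of Pmp22 from 0.903 to 0.469 and of Mbp from 0.654 to 0.438. For Cnp and Egr2 the ratio varied more than the gene itself, at 0.428 and 0.644. The ratio of Pmp22 to Sox10 in CPM was 12.9 ± 5.66 in the control, 13.1 ± 2.73 in the HFD, 12.8 ± 1.55 in the HFD + RSV and 11.5 ± 4.11 in the HFD + metformin group (SD, n = 4), with group means closer together than the mice of any group. Of the other members this held only for Prx. For Mal the ratio was 1.53 ± 0.632, 1.10 ± 0.227, 1.66 ± 0.573 and 1.22 ± 0.331 in the same order of groups (SD, n = 4).

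Correlations with Sox10 over the 16 mice, after subtracting group means, were computed for the 7 other genes and tested by permuting mice within groups, with P adjusted over these 7. Pearson's r was 0.931 for Mal and 0.931 for Prx (adjusted permutation P = 0.00129 for both), and Spearman's rho was 0.832 and 0.806 (adjusted permutation P = 0.0117 for both). Mag gave r = 0.886 and rho = 0.738, Pmp22 0.866 and 0.785, Cnp 0.858 and 0.647, and Mbp 0.775 and 0.700, all with adjusted permutation P of 0.00761 to 0.00825 for r and 0.0117 to 0.0271 for rho. Egr2 did not pass, with r = 0.415 (adjusted permutation P = 0.281) and rho = 0.276 (adjusted permutation P = 0.414).

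The mice farthest from the median of Sox10 were HFD + RSV 2 and HFD + RSV 3. Without them, and with group means taken anew, r was 0.859 for Mal and 0.812 for Prx, both at an adjusted permutation P of 0.018, and these relations held. For Mag, Pmp22, Mbp and Cnp the adjusted P passed only with those mice included. Without them r was 0.745 for Mag (permutation P = 0.0263, adjusted 0.0615) and 0.734 for Pmp22 (permutation P = 0.0389, adjusted 0.0681). It was 0.617 for Mbp (permutation P = 0.0732, adjusted 0.0914) and 0.585 for Cnp (permutation P = 0.0784, adjusted 0.0914). Egr2, which did not pass with them either, gave -0.010 (adjusted permutation P = 0.973).

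Genes outside the list were ranked by their Pearson's r, over the same 16 mice and with group means subtracted, to the mean of the 8 genes, as a description. Among the 10 most alike were Plekha4 (0.975), Wnt2b (0.962), Sptbn5 (0.954), Adcy1 (0.952), Ptprf (0.946), Nfasc (0.939), Cadm4 (0.938), Ddn (0.936) and Sfrp5 (0.935). Nfasc builds nodes and paranodes, and Cadm4 is the Schwann cell partner of axonal adhesion molecules. Without HFD + RSV 2 and HFD + RSV 3 these r lay between 0.788 (Ddn) and 0.932 (Plekha4). Of the other defining Schwann cell genes, Pmp2 reached 0.876, Ngfr, the low-affinity neurotrophin receptor of non-myelinating and immature cells, 0.736, S100b 0.710 and Erbb3, the neuregulin receptor, 0.398.

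The table counts transcripts separately, which lets the starts of these genes be told apart as far as the counting could divide reads between transcripts that share exons. Transcripts were grouped by their 5′ end, a grouping made after the values had been seen. Pmp22 lies on chromosome 11 (GRCm38, plus strand, 63128982 to 63159547) and is known for alternative first exons with separate promoters, the upstream one being the one of myelinating Schwann cells. The start at 63128982, start 1, took 88.8% of its counts, the start at 63131512, start 2, 6.92%, and 3 transcripts that begin between 63132569 and 63133068 took 4.33%.

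The 250 bases before the first 2 of these starts are shown, from RefSeq on GRCm38.p6, since the transcripts behind them varied differently between mice. Windows before the starts of Prx, Mal and Mag, the genes with the widest spread, are added for comparison. Searched on both strands were ACAAAG and AACAAT, letters bound by SOX proteins, GCGNGGGCG, letters bound by EGR proteins, and TATAAA, no 2 of which can match the same bases in full. Capitals mark a match.
Pmp22 start 1, chr11:63128732-63128981, plus strand: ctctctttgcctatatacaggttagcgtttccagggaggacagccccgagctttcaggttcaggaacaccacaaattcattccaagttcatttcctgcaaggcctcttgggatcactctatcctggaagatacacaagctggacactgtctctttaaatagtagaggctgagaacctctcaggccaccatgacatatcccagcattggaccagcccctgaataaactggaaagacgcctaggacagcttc
Pmp22 start 2, chr11:63131207-63131456, plus strand: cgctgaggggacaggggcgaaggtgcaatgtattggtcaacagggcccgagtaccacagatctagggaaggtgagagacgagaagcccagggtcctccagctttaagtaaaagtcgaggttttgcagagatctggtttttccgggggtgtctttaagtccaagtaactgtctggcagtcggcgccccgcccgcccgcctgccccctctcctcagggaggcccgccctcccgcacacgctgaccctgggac
Prx start 1, chr7:27499074-27499323, plus strand: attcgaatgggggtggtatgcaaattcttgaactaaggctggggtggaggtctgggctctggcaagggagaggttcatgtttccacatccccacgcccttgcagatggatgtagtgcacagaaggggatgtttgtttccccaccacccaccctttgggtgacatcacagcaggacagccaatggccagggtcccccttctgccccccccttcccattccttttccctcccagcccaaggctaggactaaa
Mal, chr2:127656696-127656945, minus strand: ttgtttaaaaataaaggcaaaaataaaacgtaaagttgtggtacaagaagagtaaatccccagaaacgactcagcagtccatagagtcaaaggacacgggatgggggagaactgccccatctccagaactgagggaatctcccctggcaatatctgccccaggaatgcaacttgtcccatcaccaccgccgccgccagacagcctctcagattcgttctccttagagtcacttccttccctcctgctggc
Mag, chr7:30914923-30915172, minus strand: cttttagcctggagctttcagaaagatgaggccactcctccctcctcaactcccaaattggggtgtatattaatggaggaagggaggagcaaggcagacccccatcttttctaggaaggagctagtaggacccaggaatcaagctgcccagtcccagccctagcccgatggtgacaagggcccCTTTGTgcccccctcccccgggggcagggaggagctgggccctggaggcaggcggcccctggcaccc

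The Pmp22 windows differ in composition: start 1 has 48.8% G and C and 3 CG pairs, and start 2, whose RefSeq window ends at 63131456, a little before the first base of the table's transcript, has 61.2% G and C and 14 CG pairs. Over all 32851 windows the medians were 52.4% and 6 CG pairs. Among these 5 windows only Mag held a match, CTTTGT, which is ACAAAG on the other strand. ACAAAG was found in 16.5% of all windows, AACAAT in 9.42%, GCGNGGGCG in 4.70% and TATAAA in 12.4%, so a match or its absence here says only that these letters are or are not in this stretch.

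Pmp22 start 1 followed the other genes. Its CPM were 12.2, 59.6, 50.8 and 14.6 in control mice 1 to 4, 23.8, 20.5, 7.20 and 12.4 in HFD mice, 29.1, 101, 9.58 and 28.1 in HFD + RSV mice, and 26.0, 14.7, 9.97 and 14.7 in HFD + metformin mice. Start 2 stayed low in every mouse: 2.36, 2.73, 2.31 and 1.72 CPM in control, 1.86, 1.04, 3.27 and 1.19 CPM in HFD, 2.10, 3.08, 2.75 and 2.32 CPM in HFD + RSV, and 1.98, 1.46, 3.97 and 0.970 CPM in HFD + metformin mice. HFD + RSV 2 and HFD + RSV 3, which gave 101 and 9.58 CPM at start 1, gave 3.08 and 2.75 CPM at start 2.

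Over the 16 mice, start 1 correlated with Sox10 at r = 0.849 (rho = 0.815) with an adjusted permutation P of 0.0145 over 14 relations of starts, and start 2 at r = 0.139 (rho = 0.188) with an adjusted permutation P of 0.583. Without the mice HFD + RSV 2 and HFD + RSV 3, r was 0.720 and 0.163. The difference between the r of both starts was not tested. Neither start passed the test between HFD and control mice (exact permutation P = 0.257 and 0.286) or between HFD + RSV and HFD mice (exact permutation P = 0.229 and 0.200).

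Mbp sits on chromosome 18 (GRCm38, plus strand, 82475146 to 82585637) and has a far upstream start, that of the golli transcripts, which are also known from cells without myelin, and a downstream start of the classic myelin basic proteins. In muscle the upstream start, start 1 at 82475146 to 82475162, took 61.8% of the Mbp counts and the downstream start, start 2 at 82554463 to 82554583, took 37.3%. Most of what is counted as Mbp here was therefore assigned to golli transcripts, with shared exons leaving that division uncertain.

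Start 2 gave 3.54, 10.3, 9.54 and 2.81 CPM in control mice 1 to 4, 2.77, 2.87, 1.99 and 1.65 CPM in HFD mice, 3.71, 19.3, 1.38 and 8.41 CPM in HFD + RSV mice, and 1.92, 3.22, 3.76 and 2.26 CPM in HFD + metformin mice. Start 1 gave 7.53, 11.5, 17.3 and 9.83 CPM in control, 4.98, 4.16, 4.38 and 5.42 CPM in HFD, 5.72, 13.2, 7.05 and 8.32 CPM in HFD + RSV, and 7.97, 5.73, 18.0 and 4.20 CPM in HFD + metformin mice. The high mice were those of Sox10 for start 2 and control 3 and HFD + metformin 3, the mice with the highest adipocyte markers, for start 1.

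Start 2 of Mbp correlated with Sox10 at r = 0.888 (adjusted permutation P = 0.0145) and rho = 0.700 (adjusted permutation P = 0.0897), and r was 0.684 without the mice HFD + RSV 2 and HFD + RSV 3. Start 1 gave r = 0.504 (adjusted permutation P = 0.192) and rho = 0.521 with Sox10, and r = 0.621 (adjusted permutation P = 0.206) and rho = 0.547 with Adipoq, the adipocyte hormone adiponectin. The absence of overlap between HFD and HFD + RSV mice for Mbp was found at start 1 (exact permutation P = 0.0286, mean 4.73 against 8.58 CPM), while start 2 overlapped (exact permutation P = 0.229, mean 2.32 against 8.21 CPM). Between HFD and control mice, too, start 1 did not overlap (exact permutation P = 0.0286, mean 4.73 against 11.5 CPM). Start 2 overlapped there (exact permutation P = 0.0571, mean 2.32 against 6.54 CPM).

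Prx, on chromosome 7 (GRCm38, plus strand, 27499324 to 27520214), had a start at 27499324 with 63.0% of its counts and one at 27507801 to 27507806 with 37.0%. The first correlated with Sox10 at r = 0.846 and rho = 0.921 (adjusted permutation P = 0.00126 and 0.00028), and r was 0.790 without the mice HFD + RSV 2 and HFD + RSV 3. For the other start r was 0.471 (adjusted permutation P = 0.316). Control 1 and control 4, alike in total Prx, were divided in opposite ways, 10.5 and 0.955 CPM in the first and 0.884 and 9.36 CPM in the second, so this split is uncertain. Mal and Sox10 each had 1 transcript, and the 22 member transcripts that passed the filter held 0 called at an adjusted P in edgeR in HFD against control or HFD + RSV against HFD, where 0.0157% and 0% of all 44573 transcripts tested were called. At an unadjusted P of 0.05, 5 of the 22 passed in the first and 6 in the second, against 13.1% and 5.02% of all transcripts.

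**Figure D4:**
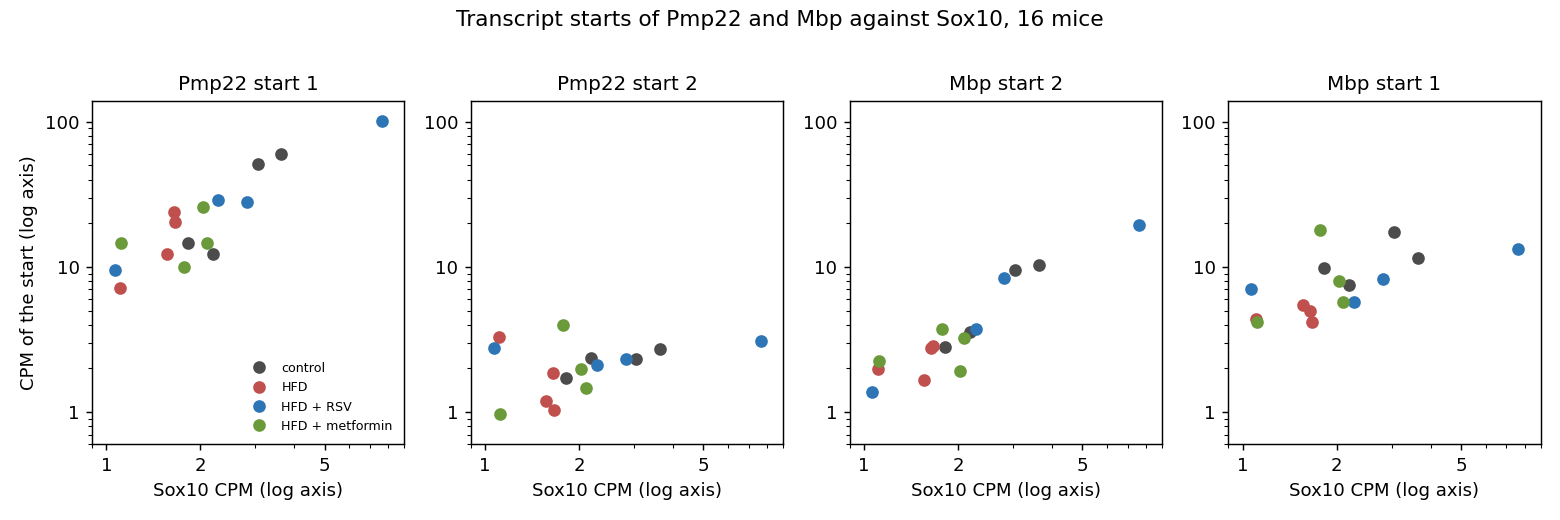
CPM of transcript starts of Pmp22 and Mbp against Sox10 CPM, both on log axes, 1 point per mouse coloured by group. Pmp22 start 1 and Mbp start 2 rise with Sox10 up to 101 and 19.3 CPM in HFD + RSV 2, Pmp22 start 2 stays between 0.970 and 3.97 CPM, and Mbp start 1 is highest, at 18.0 CPM, in an HFD + metformin mouse with 1.77 CPM of Sox10.

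Other genes of the same biology, in 8 lists, were read in the same fit and are given by counts and medians. Over all genes, 24.2% passed an unadjusted P in HFD against control and 4.72% in HFD + RSV against HFD. DESeq2 called 10% and 0.0521% in these comparisons, and edgeR by adjusted P 2.43% and 0%. The counts of each list are to be read beside these shares. Of the compact myelin proteins, 9 of 10 were tested and 0 passed an edgeR adjusted P in HFD against control or HFD + RSV against HFD, while DESeq2 called 1, Pmp2, lower in HFD against control. At an unadjusted P, 5 were lower in HFD against control and 5 higher in HFD + RSV against HFD, with median log2 fold changes of -1.33 and 1.50. Ncmap, a small protein of myelin, differed by -1.33 ± 0.55 and 1.50 ± 0.55 (log2, SE). Pmp2, the fatty acid carrier of myelin, was at 0 to 0.177 CPM in HFD mice, 0 to 3.96 CPM in control mice and 0 to 4.60 CPM in HFD + RSV mice.

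For non-compact myelin and adhesion, with 10 of 10 tested, the medians were -0.60 and 0.57, and 0 passed the edgeR adjusted P. At an unadjusted P 3 were lower and 1 higher in HFD against control, and 4 higher in HFD + RSV against HFD, and DESeq2 called 1, Pllp, lower in the first. Pllp, a proteolipid of membrane rafts, differed by -1.93 ± 0.60 and 2.20 ± 0.60, and Drp2, the dystrophin relative that binds periaxin, by -1.21 ± 0.55 and 1.64 ± 0.55 (log2, SE). Nodes and paranodes, 7 of 11 tested, gave medians of -0.62 and 0.44 with 0 passing the edgeR or DESeq2 adjusted P and 2 lower and 1 higher, in turn, at an unadjusted P. Nfasc, of this list, differed by -1.15 ± 0.49 and 1.57 ± 0.49 (log2, SE). Cntnap1, the axonal partner of paranodal junctions, differed by -1.34 ± 0.52 and 0.055 ± 0.53, the smallest P of the list in HFD against control (edgeR unadjusted P = 0.0217).

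Myelin lipid synthesis, with 9 of 10 tested, was the list with calls. Fasn (fatty acid synthase), Sqle and Fdft1 (enzymes of cholesterol synthesis) were lower in HFD against control, at -5.59 ± 0.88, -1.51 ± 0.30 and -0.79 ± 0.17 on the log2 scale (SE), with edgeR adjusted P of 0.0144, 0.0289 and 0.0343. These enzymes also serve fat and muscle cells. Mean levels in control mice were 3005 CPM for Fasn, 72.6 CPM for Fdft1 and 2.24 CPM for Sqle. The 12 Schwann cell markers together had a mean of 108 CPM in these mice. Pearson's r with the members' mean, computed as above, was 0.316 for Fasn, 0.555 for Fdft1 and 0.720 for Sqle. Which cells the RNA of these enzymes came from was not tested. DESeq2 called Fasn, Sqle, Fdft1 and Cers2, a ceramide synthase, all lower in HFD against control. None passed in HFD + RSV against HFD, where 2 were higher at an unadjusted P and Fasn differed by 0.15 ± 0.72. Ugt8a, which makes the galactolipids particular to myelin, differed by -1.76 ± 0.73 and 2.47 ± 0.74 (log2, SE) in these comparisons without passing the edgeR adjusted P (0.164 and 0.999).

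The remaining 4 lists had 0 genes past the edgeR adjusted P in these comparisons. Their other counts stand beside 24.2% and 4.72% of all genes past an unadjusted P in HFD against control and HFD + RSV against HFD. DESeq2 called 10% of all genes in HFD against control. Transcription factors of the Schwann cell, 9 of 12 tested, gave medians of -0.13 in HFD against control and 0.037 in HFD + RSV against HFD, with 4 lower and 2 higher at an unadjusted P in the first and 1 higher in the second, and DESeq2 called Yy1 and Tead1 (higher) and Nab1 (lower) in the first. Signals and receptors of myelination, 11 of 12 tested, gave -0.36 and 0.19, with 1 lower and 1 higher at an unadjusted P in the first, 0 in the second and 0 called by DESeq2. Erbb3, of this list, differed by -0.36 ± 0.23 and 0.10 ± 0.23 (SE). Genes of non-myelinating and repair Schwann cells, 7 of 12 tested, gave -0.00073 and -0.021, with 1 lower at an unadjusted P in the first, 0 in the second and 0 called by DESeq2. Other genes of Charcot-Marie-Tooth neuropathy, 10 of 10 tested, gave -0.13 and 0.12, with 3 lower and 1 higher at an unadjusted P in the first and 0 in the second. Litaf, which DESeq2 called, had the smallest edgeR adjusted P of these 4 lists, 0.0548 in HFD against control at -0.76 ± 0.19 (log2, SE).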

How the data were processed

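RNA of 4 mice per group was depleted of ribosomal RNA, made into paired-end libraries and sequenced on an Illumina NovaSeq. According to the study's methods StringTie counted fragments, and fastp, HISAT2 and GRCm38 are named in the submitters' processing notes. The authors deposited expected counts per transcript, whole numbers without normalization, for 82388 mRNA and 58245 lncRNA transcripts, and beside each count an FPKM value. Records of 4 transcripts broken over 2 lines were joined. Counts of the mRNA table were summed per gene name, filtered with filterByExpr (minimum count 10, minimum total 15), TMM-scaled and tested with the quasi-likelihood test of edgeR 4.0.16 in R 4.3.3 (robust, 16 mice in 1 fit, Benjamini-Hochberg over 15364 genes, called at adjusted P below 0.05). The SE is the absolute log2 fold change over the square root of F. DESeq2 1.42.0 was the alternative tool. The scripts were tested on simulated data.

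Single genes were also compared by exact two-sided permutation of log2 CPM (prior count 2), 4 mice against 4. Correlations used residuals from group means and 100000 permutations within groups (scipy 1.17.1). Transcripts were grouped into starts where 5′ ends lay within 1000 bases. Replicates are separate mice. The edgeR P-values set a difference against the spread between mice within all 4 groups of the fit, drawn towards that of other genes. The exact permutation P-values use only the mice of both groups compared. Fewer than 100 counts per mouse stood behind Mag and Egr2, and this depth limits their precision. Sox10 had 24 to 176 counts per mouse and Mal 26 to 361. The ratios to Sox10 and the correlations with it carry this limit too.

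The members, the gene lists and the markers were chosen with earlier results of these data known. Named are the 8 members, the defining Schwann cell genes, up to 4 genes of each list by smallest P in HFD against control or HFD + RSV against HFD, and the 10 genes most like the members' mean. Adipoq and the named marker genes were chosen after their values were seen. Sequences are from RefSeq (GRCm38.p6), which held 15 windows for 6 of the 8 genes. Values of some genes that this rule names are not reported here.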

Additional observations from a re-analysis of the deposited data

Results flagged for a closer look

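In each of 32 groups of 4 mice (8 genes, 4 groups) the gap between an extreme mouse and its neighbour was set against the range of the group, and a gap past the 95% critical value of Dixon's test was listed. Of 32, 2 were listed, and chance lists about 1 group in 20. Egr2 stood at 2.16 CPM in control 2 while the other control mice lay between 1.29 and 1.40 CPM. Control 2 was also among the high mice for every structural gene of myelin. Sox10 stood at 1.11 CPM in HFD 3, below the 1.56 to 1.66 CPM of the other HFD mice, on 25 counts.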

How the results depend on the processing

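The number of the 8 genes called at an edgeR adjusted P stayed at 0 in all 6 comparisons under RLE and upper-quartile scaling, without the count filter, in the 12-mouse fit where it applies, and per transcript. Leaving out 1 mouse gave 0 to 1 in HFD against control and 0 in the others. DESeq2 called 1 gene in HFD against control and 1 in HFD + RSV against HFD + metformin, and the criteria of the study gave 4, 6, 1 and 3 genes in HFD against control, HFD + RSV against HFD, HFD + metformin against control and HFD + RSV against HFD + metformin. Over all genes, HFD against control gave 374 calls in the 16-mouse fit, 158 without the filter, 1616 in the 12-mouse fit and 1544 with DESeq2, and HFD + RSV against control gave 1 call in the 16-mouse fit, 231 in the 12-mouse fit and 376 with DESeq2. For the other 4 comparisons DESeq2 called 8 to 146 genes and the 16-mouse fit 0 to 2. Correlations with Sox10 fell without the 2 farthest mice to 0.734 (Pmp22), 0.617 (Mbp), 0.745 (Mag) and 0.585 (Cnp), and that of Egr2 turned to -0.01. Directions turned for 16 fitted log2 fold changes, none past an adjusted P, each on leaving out 1 mouse, and the ranges over the 16 such fits were as follows. In HFD + metformin against HFD, Pmp22 ranged from -0.31 to 0.13. In HFD + RSV against control the ranges were -0.58 to 0.65 for Pmp22, -0.65 to 0.14 for Mbp, -0.53 to 0.53 for Mag, -0.46 to 0.87 for Prx, -0.39 to 0.90 for Mal, -0.095 to 0.31 for Cnp and -0.39 to 0.66 for Sox10, with the lowest value without HFD + RSV 2 each time. In HFD + RSV against HFD + metformin, Mbp ranged from -0.015 without HFD + RSV 2 to 1.00. The cause was not tested. The other 965 values kept their direction and side of the threshold, and 3 single-gene values newly passed it (Mbp with DESeq2 and without HFD + metformin 3, Egr2 with DESeq2). A prior count of 0.5 left the correlations between 0.399 and 0.930. No paired analysis was possible because no groups compared share more than 1 whole mouse number in their titles: control and HFD + RSV share 1, the others 0, and what its parts stand for is not given in the sources used here. Counts of 2 to 74 per mouse limit what can be said of Mag and Egr2, and counts of 24 to 176 what can be said of Sox10.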

Other observations

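Among the 58245 lncRNA transcripts, 5 overlapped the spans of the 8 genes, 4 of them lying inside and that of Mag reaching past its 5′ end. NONMMUT033250.2, on chromosome 18 (GRCm38, 82575341 to 82577314) within the 3′ part of Mbp, had 442 counts over the 16 mice, between 9 and 102 a mouse. It was highest in HFD + RSV 2 (4.42 CPM), then in HFD + RSV 4 (2.15 CPM), control 3 (1.72 CPM) and control 2 (1.51 CPM), and lowest in HFD 4 (0.413 CPM). Reads of this transcript and of Mbp itself cannot be told apart here, since the strand used in counting is not given in the sources used here. The lncRNA transcripts overlapping Pmp22, Mag and Prx held 35, 8 and 92 counts in all.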
